A study of Mus musculus with 2 samples.

Results

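The tumour necrosis factor (TNF) superfamily, the secreted or membrane-bound ligands and the receptors that bind them, was described in medullary thymic epithelial cells (mTECs). Members were the rows of the deposited gene table whose symbol begins with Tnfsf or Tnfrsf, or is Tnf, Lta, Ltb, Ltbr, Cd40, Cd40lg, Cd27, Cd70, Fas, Fasl, Eda or Edar. This rule, which uses names and no measured value, found 44 of 23997 rows, 19 for ligands and 25 for receptors. RNA was sequenced from C57BL/6 mTECs sorted for high surface MHC class II, with 1 library labelled WT and 1 library labelled Aire-KO (genotype Aire-/-), each made from cells of pooled mice. Aire is the transcriptional regulator through which these cells display proteins of other tissues to developing T cells. How many mice were used, how old they were, their sex and which Aire allele they carried is not stated in the labels. With 1 library per genotype there is no replicate check and no test of genotype. Lower and higher describe the Aire-KO label against the WT label, and where values come in pairs the WT label comes first. Because the samples are bulk RNA, fewer cells of a type and less RNA per cell cannot be told apart.

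Most TNF superfamily ligands are trimers on the surface of a neighbouring cell, and some are shed. Their receptors lack enzyme activity and recruit adapters instead, TRAF proteins that lead to NF-kB and other pathways, or death-domain proteins that lead to caspase-8. In the thymic medulla, RANK, CD40 and the lymphotoxin beta receptor are the receptors best known for driving mTEC growth and maturation, through the kinase NIK and the NF-kB subunit RelB, in answer to ligands made by thymocytes and innate lymphoid cells.

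Levels are in FPKM, which counts fragments per length of transcript and scales for sequencing depth, so that levels of different genes can be compared. The table summed to 523609 and 551619 FPKM, and the steps between low values implied about 47200000 and 53800000 fragments. A log2 ratio is that of Aire-KO over WT after adding 0.1 FPKM to each, a scale on which differences of low genes come out too small. Ranges marked 95% are counting intervals of the log2 ratio without the added 0.1, from estimated fragments. They hold counting error alone and no spread between mice or libraries. Fragments were not tagged by molecule and are not independent, so the intervals may be too narrow even for counting error. A call of lower or higher means a difference of at least 2-fold in a gene whose mean is at least 0.5 FPKM. It is a cut on size, with no test behind it. Genes of 5 FPKM or more had a median log2 ratio of 0.16, so the ratios below also depend on how the libraries were scaled.

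Markers of the labelled cell type were present. Of 10 medullary markers, 9 were in the table and none was listed at 0. Among them were Epcam at 362.7 and 295.7 FPKM and the MHC class II gene H2-Aa at 8398 and 11948 FPKM. The list summed to 17475 and 24281 FPKM, mostly from MHC class II genes, with a median log2 ratio of 0.43. Aire was called higher, and no other medullary marker was called. The Aire transcript was at 220.6 and 640.2 FPKM, and a value for the whole gene does not show whether part of it is deleted. RNA typical of other cells was present too. Dendritic cell and macrophage markers summed to 744.0 and 502.8 FPKM, most of it from Lyz2. Of 9 such markers measured, 6 were called lower, and Cd209a was at 2.91 FPKM and listed at 0. Thymocyte markers summed to 37.5 and 22.0 FPKM, with 4 of 10 called lower and none listed at 0. B cell markers summed to 46.3 and 49.2 FPKM, with 1 of 6 called lower, 1 called higher and none listed at 0. Cortical epithelial markers summed to 230.3 and 217.4 FPKM with 1 of 6 called lower. Fibroblast and endothelial markers summed to 36.8 and 27.5 FPKM with 2 of 6 called lower. Beside these counts, 20.5% of all genes were called lower and 7.09% higher. Of genes with a mean under 5 FPKM, 35.7% were called lower.

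Of the 44 members, 41 reached the minimum mean of 0.5 FPKM. Of these, 10 were called lower, 24.4%, beside 20.5% of all 15906 genes that reached it. A single member, Tnfrsf10b, was called higher, 2.44% of members beside 7.09% of all genes. The other 30 were within 2-fold. At this setting the share of lower calls among members was near that of the whole table. The distance between the shares varied with the setting, from 43.9% beside 26.8% at a 1.5-fold threshold, and 34.1% beside 22.5% with the libraries centred on genes of 5 FPKM or more, to 3.45% beside 14.3% at a minimum mean of 2 FPKM. The median log2 ratio was -0.48 for members and 0.05 for all genes. Lower calls took similar shares of ligands (4 of 16, median -0.81) and of receptors (6 of 25, median -0.34). Below the minimum were Cd40lg, Fasl and Tnfsf8.

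Lower calls lay mainly among members of low level. Among the 17 members with a mean under 5 FPKM, 9 were called lower, 52.9%, with a median log2 ratio of -1.15. Of all genes at that level 35.7% were called lower, with a median of -0.33. Among the 24 members at 5 FPKM or more, Tnfrsf8 alone was called lower, 4.17%, beside 11.0% of all genes at that level, and the median was 0.24 beside 0.16. Well-expressed members therefore lay close to the rest of the table as a group, and 14 of the 24 had a higher value in the library labelled Aire-KO. In 2 of those 14, Tnfsf12 and Tnfrsf1b, the sign turned when the libraries were scaled to the same sum or centred on well-expressed genes. Of the 17 low members, a single row, Tnfsf12Tnfsf13, had a higher FPKM, and its sign turned on centring as well. With medians of -0.33 under 5 FPKM and 0.16 above, most genes of the whole table had the same direction at each level. The shares of all genes by direction were not counted. Eda, counted with a lower FPKM, had more estimated fragments in the library labelled Aire-KO.

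The levels spanned a wide range. Cd40 was the most abundant member in both libraries, at rank 770 and rank 502 among 23992 genes. Above 10 FPKM in both libraries were 19 members, 13 receptors and 6 ligands, of which Tnfrsf8 was called lower and Tnfrsf10b higher. In the authors' deposited table, 0 of 44 members carried the authors' significance call, beside 0.342% of all rows with a usable comparison. The smallest q-value among members in the authors' deposited table was 0.586, shared by Tnfrsf10b, Tnfrsf13c, Tnfrsf8 and Cd40lg. The authors' deposited table gives p-values of 0.0398, 0.0482 and 0.0593 for Tnfrsf10b, Tnfrsf13c and Tnfrsf8, which compare 2 libraries and not the genotypes.

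**Figure D1:**
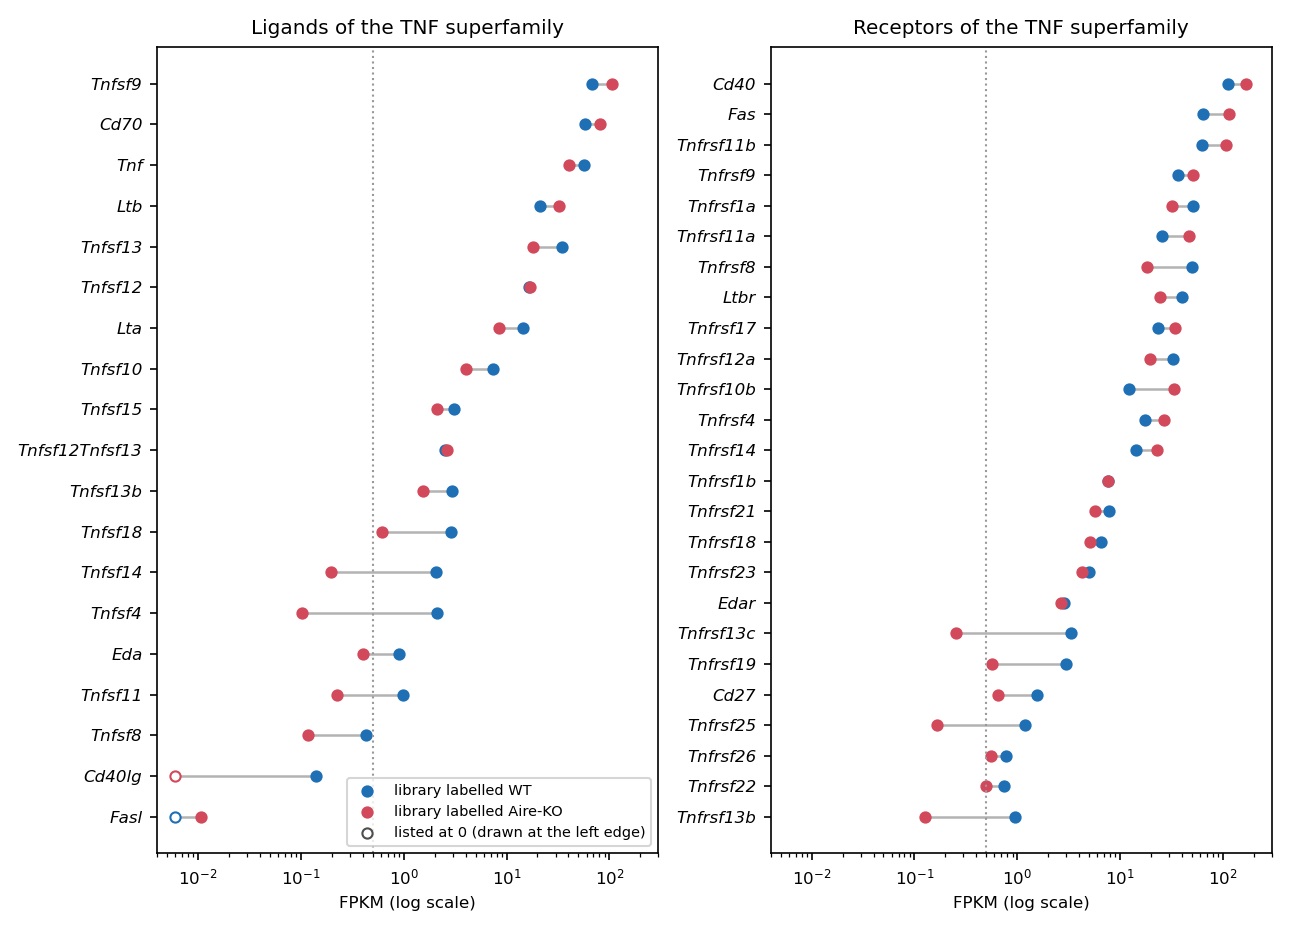
FPKM on a log scale for each ligand (left) and receptor (right), ordered by mean level. Blue points carry the WT label, red points the Aire-KO label, open points values listed at 0, and the dotted line marks 0.5 FPKM. Long gaps between the points lie mostly in the lower parts of both panels, with Tnfrsf8 and Tnfrsf10b as wide gaps among abundant receptors.

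**Figure D2:**
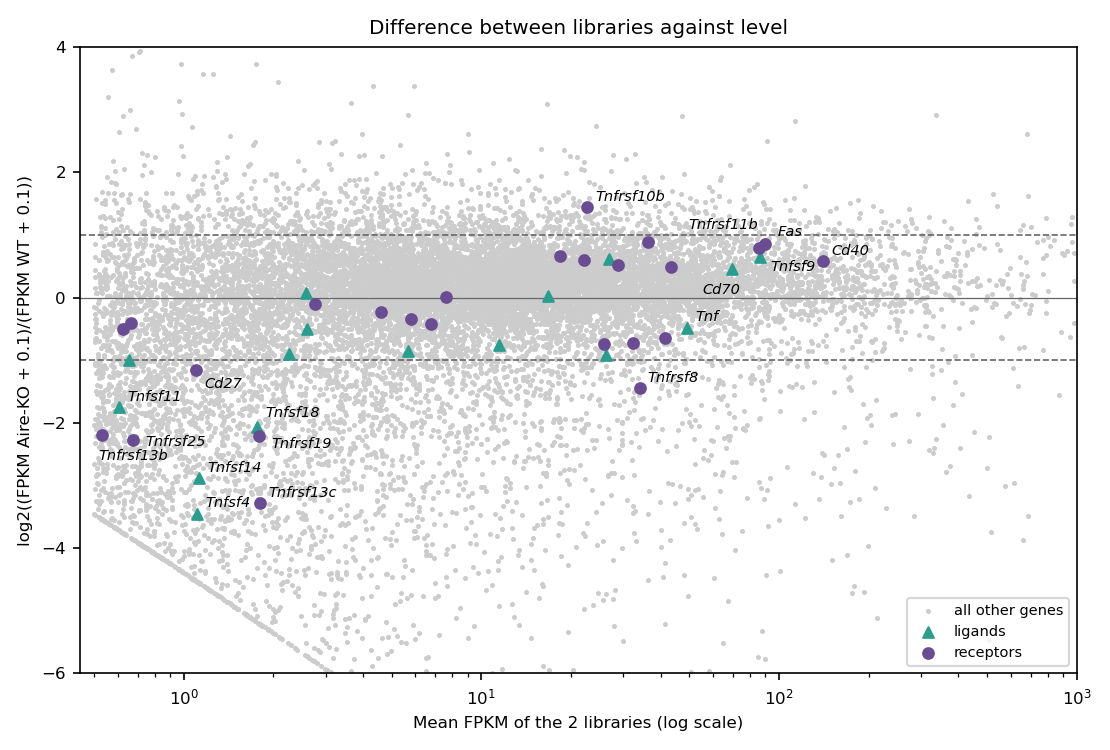
Log2 ratio (vertical axis) against mean FPKM on a log scale (horizontal axis) for genes whose mean reached 0.5 FPKM. Triangles are ligands, circles receptors and grey dots all other genes, dashed lines mark 2-fold, and other genes that lie beyond the axes are not drawn. The 9 low members called lower sit at the left, and Tnfrsf8 and Tnfrsf10b are the abundant members beyond the dashed lines.

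Since many genes of this family are targets of NF-kB as well as its inducers, the start sites were searched for the NF-kB consensus on both strands. The windows ran from 250 bases before to 50 bases after each RefSeq start (GRCm38.p6, the same build as mm10). A window was available for 33 members, 37 windows in all. The other 11 members had no window and were not searched. They were Cd40, Cd40lg, Cd70, Tnfrsf10b, Tnfrsf11b, Tnfrsf22, Tnfrsf26, Tnfsf4, Tnfsf9, Tnfsf12 and Tnfsf12Tnfsf13. Of the 37 windows, 4 held a match (10.8%), beside 8.46% of all 32851 windows of 300 bases. TATAAA on either strand was in 6 of the 37 windows (16.2%), beside 13.6% of all windows. Both shares were close to those of all start sites. The windows with an NF-kB match belonged to Ltb, Tnfrsf8, a downstream start of Tnfrsf9 and a downstream start of Tnfrsf25. The 250 bases upstream of the start are shown for the 3 genes among them that exceeded 10 FPKM in both libraries, with the match in capitals. In Tnfrsf8 and Tnfrsf9 the capitals span 2 matches that overlap. The log2 ratios of these genes were 0.62 for Ltb, -1.45 for Tnfrsf8 and 0.48 for Tnfrsf9. A match is a description of the letters and not a measured binding site. Ltb is on the plus strand at chr17:35194257-35194506, Tnfrsf8 on the minus strand at chr4:145315165-145315414 and Tnfrsf9 on the plus strand at chr4:150927749-150927998.
Ltb: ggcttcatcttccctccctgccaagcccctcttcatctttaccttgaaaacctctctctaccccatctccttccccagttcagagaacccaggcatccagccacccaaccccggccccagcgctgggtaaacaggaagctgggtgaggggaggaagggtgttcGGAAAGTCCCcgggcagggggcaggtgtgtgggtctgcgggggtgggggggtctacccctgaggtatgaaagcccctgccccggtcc
Tnfrsf8: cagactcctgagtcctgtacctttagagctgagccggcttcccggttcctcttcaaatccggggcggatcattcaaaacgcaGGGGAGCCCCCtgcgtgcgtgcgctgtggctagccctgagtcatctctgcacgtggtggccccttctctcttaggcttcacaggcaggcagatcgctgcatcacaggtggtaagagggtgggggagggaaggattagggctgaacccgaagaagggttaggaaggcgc
Tnfrsf9: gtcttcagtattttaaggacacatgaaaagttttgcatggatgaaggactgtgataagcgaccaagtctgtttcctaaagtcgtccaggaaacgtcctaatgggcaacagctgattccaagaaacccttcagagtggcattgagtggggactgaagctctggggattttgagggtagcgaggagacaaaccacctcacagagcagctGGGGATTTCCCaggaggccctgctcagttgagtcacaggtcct

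The TNF and lymphotoxin group held 8 members, of which 1 was called lower (12.5%, beside 20.5% of all genes). Its 3 classical ligands lie side by side on chromosome 17 within 11.1 kb and did not have the same sign. Tnf, the founding cytokine (chromosome 17, 35199367 to 35202007), was at 57.1 FPKM under the WT label and 40.9 FPKM under the Aire-KO label (log2 ratio -0.48, 95% -0.55 to -0.42). Lta, which encodes lymphotoxin alpha (chromosome 17, 35203165 to 35205578), was at 14.4 and 8.50 FPKM (log2 ratio -0.75, 95% -0.92 to -0.60). Ltb, which anchors lymphotoxin to the membrane (chromosome 17, 35194507 to 35196305), was at 21.1 and 32.5 FPKM (log2 ratio 0.62, 95% 0.51 to 0.74). The intervals of Ltb and of its neighbours, which hold counting error alone, do not overlap, and all 3 genes were within 2-fold. Tnfsf14 (chromosome 17, 57189474 to 57194181) encodes LIGHT, a ligand of the lymphotoxin beta receptor and of HVEM, and was the member of the group called lower. Its level was 2.07 and 0.195 FPKM, an estimated 164 and 18 fragments, with a log2 ratio of -2.88 (95% -4.17 to -2.67).

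The receptors of these ligands were well expressed. Tnfrsf1a, the widely expressed TNF receptor with a death domain, was at 50.7 and 32.3 FPKM (log2 ratio -0.65, 95% -0.72 to -0.59). Ltbr, the lymphotoxin beta receptor, was at 40.4 and 24.5 FPKM (log2 ratio -0.72, 95% -0.80 to -0.65). Both lie on chromosome 6 in a stretch of 130 kb with Cd27, and all 3 had lower values in the library labelled Aire-KO. Tnfrsf1b, the TNF receptor without a death domain, was at 7.55 and 7.60 FPKM, and its interval spanned 0 (95% -0.10 to 0.12). Tnfrsf14, the receptor HVEM, was at 14.3 and 22.6 FPKM (log2 ratio 0.66, 95% 0.51 to 0.81). Of the lymphotoxin genes, Ltb therefore had a higher value, while Lta and the receptor gene Ltbr had lower values.

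In the RANK group, the ligand was scarce and the receptors were abundant. Tnfsf11 (chromosome 14, 78277446 to 78308043) encodes RANK ligand, which in the thymus is made mainly by thymocytes and innate lymphoid cells. It was at 0.989 and 0.223 FPKM, an estimated 96 and 25 fragments, and was called lower with a log2 ratio of -1.75 (95% -2.83 to -1.48). With a pseudocount of 1 FPKM the ratio was -0.70 and the call was lost. Tnfrsf11a, the signalling receptor RANK (chromosome 1, 105780673 to 105849444), was at 25.3 and 47.0 FPKM (log2 ratio 0.89, 95% 0.85 to 0.94). Tnfrsf11b, the soluble decoy receptor osteoprotegerin (chromosome 15, 54250619 to 54278484), was at 62.7 and 108.2 FPKM (log2 ratio 0.79, 95% 0.75 to 0.83). The signalling receptor and the decoy thus had higher values by similar amounts, and neither reached 2-fold. With the libraries centred on well-expressed genes, the log2 ratios were 0.73 for Tnfrsf11a and 0.63 for Tnfrsf11b. Thymocyte markers, whose sums were 37.5 and 22.0 FPKM, had 4 of 10 called lower and 6 within 2-fold. Of all genes 20.5% were called lower, and of genes under 5 FPKM 35.7%. Of 4 innate lymphoid and NK markers measured, 1 was called lower, with sums of 39.1 and 42.1 FPKM and with Ncr1 listed at 0 in both libraries and Klrk1 in the library labelled Aire-KO. The part of either cell type in the value of Tnfsf11 was not tested.

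The costimulatory group, named for its role between antigen-presenting cells and T cells, held 10 measured members with 4 called lower (40.0%, beside 20.5% of all genes) and none higher (beside 7.09%), and a median log2 ratio of 0.06. Cd40, the receptor through which helper T cells license antigen-presenting cells (chromosome 2, 165055614 to 165071654), was at 112.9 and 168.8 FPKM (log2 ratio 0.58, 95% 0.55 to 0.61). Its ligand Cd40lg, a gene of activated T cells, was at 0.139 FPKM and listed at 0, an estimated 7 and 0 fragments. Cd70 (chromosome 17, 57145997 to 57149777), the ligand of CD27, was at 58.5 and 80.4 FPKM (log2 ratio 0.46, 95% 0.37 to 0.54). Cd27 itself, a receptor of T cells and some B cells (chromosome 6, 125232620 to 125237136), was at 1.56 and 0.644 FPKM and was called lower, with a log2 ratio of -1.15 (95% -1.84 to -0.69). That call was lost with a pseudocount of 1 FPKM, at -0.64. Its ligand was thus well above 10 FPKM in both libraries while the receptor was close to the minimum. Of 10 thymocyte markers measured, 4 were called lower, beside 20.5% of all genes and 35.7% of genes under 5 FPKM. The other 6 were within 2-fold. The part of thymocyte RNA in the value of Cd27 was not tested.

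Tnfsf9, the ligand of 4-1BB (chromosome 17, 57105287 to 57107758), was the most abundant ligand gene, at 67.4 and 105.6 FPKM (log2 ratio 0.65, 95% 0.59 to 0.71). Tnfrsf9, which encodes 4-1BB (chromosome 4, 150920155 to 150946104), was at 36.4 and 50.7 FPKM (log2 ratio 0.48, 95% 0.41 to 0.54). This was the costimulatory pair in which both the ligand and the receptor were above 10 FPKM. Tnfsf9 and Cd70 share 88.9 kb of chromosome 17 with Tnfsf14, which was called lower while its neighbours had higher values.

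Tnfrsf8, which encodes CD30 (chromosome 4, 145267132 to 145315164), stood out among abundant members. It was at 49.8 FPKM under the WT label and 18.2 FPKM under the Aire-KO label, rank 1831 and rank 4745 of 23992 genes, from an estimated 7618 and 3174 fragments. The log2 ratio was -1.45 (95% -1.51 to -1.39), and -1.60 with the libraries centred. Its neighbour within 103 kb, Tnfrsf1b, had a log2 ratio of 0.01. The upstream stretch of Tnfrsf8 printed above holds overlapping NF-kB matches. The CD30 ligand gene Tnfsf8 was below the minimum in both libraries, at 0.434 and 0.117 FPKM.

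Both ligands of the chromosome 1 cluster were called lower. Tnfsf4 encodes OX40 ligand and Tnfsf18 encodes GITR ligand, and the genes lie within 110 kb. Tnfsf4 (chromosome 1, 161395438 to 161418206) was at 2.11 and 0.103 FPKM, an estimated 166 and 9 fragments, with a log2 ratio of -3.45 (95% -5.55 to -3.43). With a pseudocount of 1 FPKM the ratio was -1.49. Without any pseudocount the level in the library labelled WT was 20.6 times that in the library labelled Aire-KO. Tnfsf18 (chromosome 1, 161494657 to 161505290) was at 2.90 and 0.614 FPKM, an estimated 259 and 63 fragments, with a log2 ratio of -2.07 (95% -2.65 to -1.83). Their receptors did not share this. Tnfrsf4, which encodes OX40, was at 17.5 and 26.7 FPKM (log2 ratio 0.60, 95% 0.47 to 0.74), and Tnfrsf18, which encodes GITR, at 6.49 and 5.11 FPKM (log2 ratio -0.34, 95% -0.58 to -0.11). OX40 ligand is also made by dendritic cells. Of 9 dendritic cell and macrophage markers measured, 6 were called lower, beside 20.5% of all genes and 35.7% of genes under 5 FPKM. The other 3 were within 2-fold. Cd68 (24.1 and 33.1 FPKM) and Batf3 (16.4 and 28.2 FPKM) had higher values, and Lyz2 (675.5 and 436.4 FPKM) a lower one. Lyz2 made up most of the list sum of 744.0 and 502.8 FPKM. The part of dendritic cells in the values of Tnfsf4 and Tnfsf14 was not tested.

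**Figure D3:**
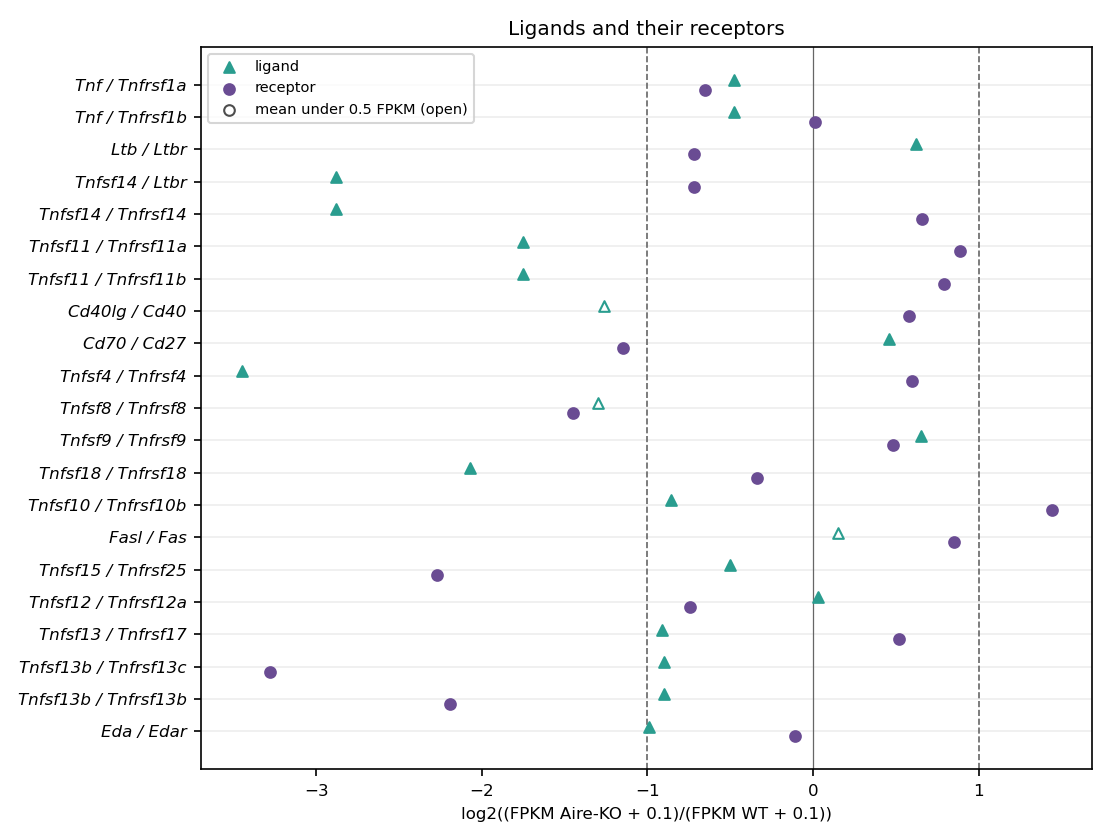
Log2 ratio (horizontal axis) of the ligand (triangle) and the receptor (circle) in 21 ligand and receptor pairs, with open symbols for genes under 0.5 FPKM and dashed lines at 2-fold. For Tnfsf14 with Tnfrsf14, Tnfsf11 with its receptors and Tnfsf4 with Tnfrsf4, the ligand lies left of the 2-fold line and the receptor right of 0.

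Among the death receptors, Tnfrsf10b was the member called higher. It encodes a mouse receptor for TRAIL (chromosome 14, 69767472 to 69784411). The gene was at 12.2 FPKM under the WT label and 33.2 FPKM under the Aire-KO label, from an estimated 1736 and 5377 fragments. The log2 ratio was 1.44 (95% 1.36 to 1.52), and 1.28 with the libraries centred. Its rank moved from 6247 to 2853 of 23992. The gene for its ligand TRAIL, Tnfsf10, had a lower value, at 7.37 and 4.01 FPKM (log2 ratio -0.86, 95% -0.99 to -0.77). Tnfsf10 passed 2-fold after centring, at -1.02. Tnfrsf25, the death receptor DR3 (chromosome 4, 152115528 to 152120119), was called lower from a low level, 1.19 and 0.166 FPKM or an estimated 80 and 13 fragments (log2 ratio -2.27, 95% -3.78 to -1.96). With a pseudocount of 1 FPKM it was at -0.91, short of 2-fold. Its ligand gene Tnfsf15 was at 3.06 and 2.13 FPKM (log2 ratio -0.50, 95% -0.73 to -0.32).

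Fas, the receptor of Fas ligand (chromosome 19, 34290647 to 34327775), was at 63.9 and 115.2 FPKM (log2 ratio 0.85, 95% 0.79 to 0.91). Its ligand gene Fasl was listed at 0 in the library labelled WT and at 0.0107 FPKM, about 1 fragment, in the library labelled Aire-KO. The Fas isoforms differed between libraries. NM_007987, with 9 coding exons and 981 coding bases, was at 48.2 and 108.9 FPKM, or 75.5% and 94.5% of the gene. NM_001146708, with 3 coding exons and 189 coding bases, was at 15.6 and 6.37 FPKM, or 24.5% and 5.53%. The short isoform lacks coding exons 3 to 9, and so the part of the receptor that spans the membrane and the death domain. Fas had the sole share shift of 15 percentage points or more among the 7 members with 2 or more isoform rows and 5 FPKM or more in both libraries, at 18.97 points. The error of dividing reads among isoforms was not measured. The first coding exon that separates the isoforms is shown, chr19:34315179-34315316 on the plus strand (GRCm38, GENCODE M21), in lower case throughout.
Fas coding exon 3: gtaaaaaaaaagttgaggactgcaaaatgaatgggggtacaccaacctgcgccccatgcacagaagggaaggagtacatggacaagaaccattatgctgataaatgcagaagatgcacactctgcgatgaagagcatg

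Isoforms of 2 costimulatory receptors differed by a single coding exon. NM_001077508 of Tnfrsf9 lacks coding exon 6, the exon that encodes the membrane-spanning segment of 4-1BB, and was at 21.9 and 33.4 FPKM. The isoform with this exon, NM_001077509, was at 14.5 and 17.3 FPKM. The isoform without the membrane-spanning exon took 60.1% and 66.0% of the gene's FPKM, a majority in both libraries. In Cd27, NM_001286753 lacks coding exon 3 and was at 0.956 and 0.112 FPKM, while NM_001033126, which has it, was at 0.584 and 0.532 FPKM. The share of the latter was 37.5% and 82.6%, at a level where a share rests on few fragments, an estimated 68 and 44 for the whole gene. The exons that set these isoforms apart are shown, for Tnfrsf9 chr4:150935422-150935556 on the plus strand and for Cd27 chr6:125234515-125234694 on the minus strand.
Tnfrsf9 coding exon 6: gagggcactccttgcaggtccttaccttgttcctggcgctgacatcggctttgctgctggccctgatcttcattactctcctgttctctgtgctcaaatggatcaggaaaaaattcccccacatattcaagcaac
Cd27 coding exon 3: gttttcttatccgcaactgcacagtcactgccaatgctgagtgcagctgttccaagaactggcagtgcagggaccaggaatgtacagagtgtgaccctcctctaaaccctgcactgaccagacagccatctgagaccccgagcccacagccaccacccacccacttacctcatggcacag

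Cd40 kept its main isoform, NM_011611, at 83.2 and 112.7 FPKM, 73.7% and 66.8% of the gene. A shorter isoform, NM_170703, was at 13.3 and 29.8 FPKM, 11.8% and 17.7%. Its coding part has 609 bases beside 867 in NM_011611.

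**Figure D4:**
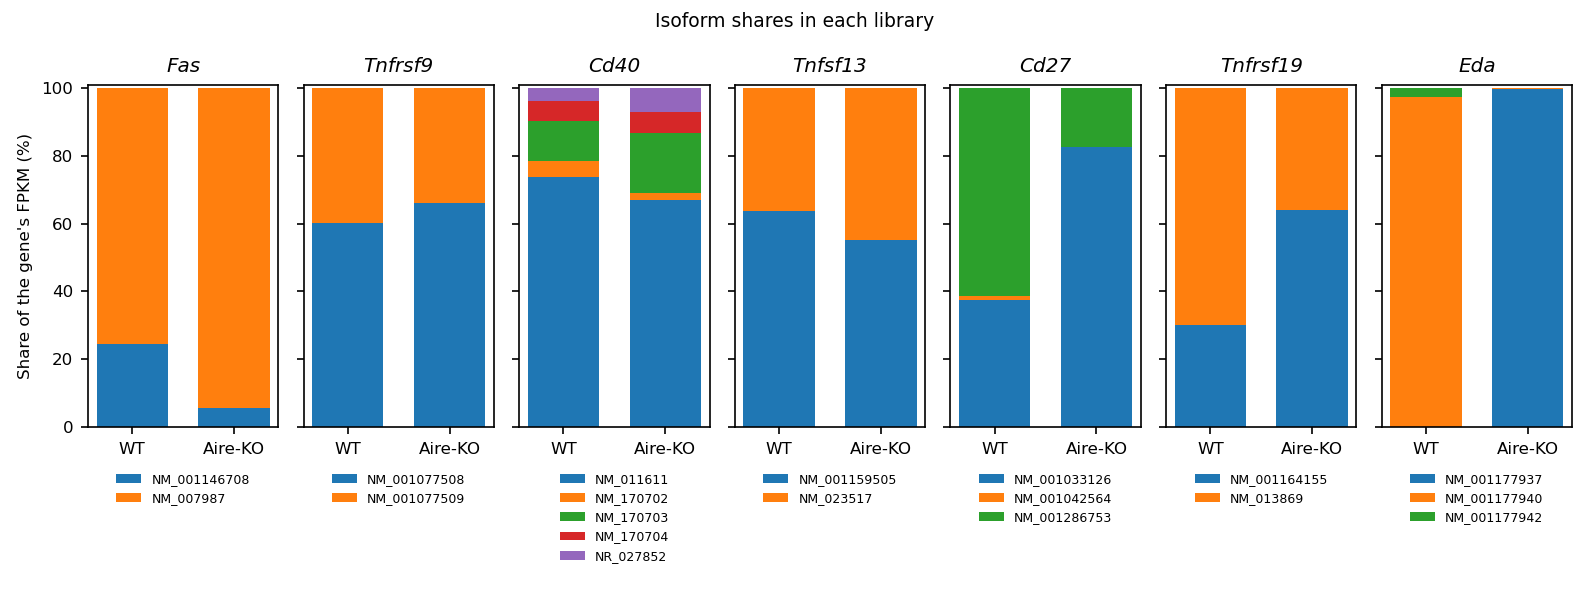
Share of each isoform in the FPKM of its gene (percent) under the WT and Aire-KO labels, for 7 members, with isoforms under 0.5% in both libraries left out. The short Fas isoform NM_001146708 goes from 24.5% to 5.53%, and the leading isoforms of Cd27, Tnfrsf19 and Eda, all low genes, change places.

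The BAFF, APRIL and TWEAK group, best known for B cell survival, held 8 members with 2 called lower (beside 20.5% of all genes) and a median log2 ratio of -0.82. Tnfsf13b encodes BAFF and was at 2.97 and 1.55 FPKM (log2 ratio -0.90, 95% -1.13 to -0.76). Of its 3 receptor genes, Tnfrsf13c and Tnfrsf13b were called lower and Tnfrsf17 was not. Tnfrsf13c, the BAFF receptor (chromosome 15, 82221742 to 82224380), was at 3.35 and 0.255 FPKM, an estimated 277 and 24 fragments, with a log2 ratio of -3.28 (95% -4.38 to -3.11). Tnfrsf13b, which encodes TACI (chromosome 11, 61126283 to 61153170), was at 0.940 and 0.127 FPKM, an estimated 26 and 4 fragments, and its interval was wide (log2 ratio -2.19, 95% -4.87 to -1.36). A pseudocount of 1 FPKM put Tnfrsf13b at -0.78 and ended its call. Tnfrsf13c and Tnfrsf13b are typical of B cells, and among 6 B cell markers Cd79a was at 2.13 and 0.0957 FPKM while Pax5 was at 0.621 and 1.44 FPKM and Cd79b at 37.1 and 37.8 FPKM. The list summed to 46.3 and 49.2 FPKM, and its part in the values of Tnfrsf13c and Tnfrsf13b was not tested.

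Tnfsf13, which encodes APRIL, was the abundant ligand of the group, at 34.3 and 18.2 FPKM (log2 ratio -0.91, 95% -1.02 to -0.81), and passed 2-fold after centring, at -1.06. Tnfrsf17 encodes BCMA, a receptor of APRIL and BAFF best known from plasma cells, and was at 23.6 and 33.9 FPKM (log2 ratio 0.52, 95% 0.39 to 0.66). Of the TWEAK pair, the ligand gene Tnfsf12 was at 16.7 and 17.0 FPKM, with an interval that spanned 0 (95% -0.09 to 0.15), and its receptor gene Tnfrsf12a at 32.4 and 19.4 FPKM (log2 ratio -0.74, 95% -0.87 to -0.61). Tnfsf12, Tnfsf13 and the readthrough row Tnfsf12Tnfsf13 overlap within 13.5 kb of chromosome 11, and the way common reads were divided among them sets their values. The readthrough row was at 2.51 and 2.66 FPKM, with an interval that spanned 0 (95% -0.16 to 0.34).

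Eda and Edar, the ectodysplasin ligand and receptor of skin appendages, were low. Edar was at 2.87 and 2.65 FPKM (95% -0.30 to 0.07). Eda was at 0.902 and 0.405 FPKM with a log2 ratio of -0.99, just short of 2-fold, yet an estimated 46 and 104 fragments lay behind these values. The fragments and the FPKM point in opposite directions because the authors' estimate put 97.3% of the gene on NM_001177940, of 1152 bp, in the library labelled WT, and 99.7% on NM_001177937, of 4955 bp, in the library labelled Aire-KO. The direction of Eda therefore rests on the isoform assigned.

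Of the other receptors, Tnfrsf19, which encodes TROY (chromosome 14, 60963834 to 61046855), was called lower at 3.01 and 0.574 FPKM, an estimated 547 and 118 fragments (log2 ratio -2.21, 95% -2.69 to -2.10). Its isoform NM_013869 was at 2.11 and 0.207 FPKM and NM_001164155 at 0.903 and 0.367 FPKM. Tnfrsf21, the death receptor DR6, was at 7.75 and 5.75 FPKM (log2 ratio -0.42, 95% -0.55 to -0.31). Tnfrsf22, Tnfrsf23 and Tnfrsf26 form a cluster of 78.8 kb on chromosome 7, and Tnfrsf22 and Tnfrsf23 are close relatives, so their reads may be divided between them. Their log2 ratios were -0.50, -0.23 and -0.40. The levels of Tnfrsf23 were 4.98 and 4.24 FPKM and those of Tnfrsf26 were 0.771 and 0.559 FPKM, while Tnfrsf22 was at 0.748 and 0.50 FPKM.

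The signalling genes downstream of these receptors mostly lay within 2-fold, as did 11518 of all 15906 genes. Of all genes, 20.5% were called lower and 7.09% higher. Of 7 TRAF adapters, 1 was called lower, Traf5 at 5.33 and 2.59 FPKM, and the list median was 0.29. Traf6, an adapter that RANK and CD40 both use, was at 18.8 and 36.9 FPKM, just under 2-fold with a log2 ratio of 0.97. Of 13 genes of the death-domain and caspase-8 branch, Mlkl, the executor of necroptosis, was called lower at 6.24 and 2.85 FPKM. Edaradd, the adapter of EDAR, was called higher at 1.49 and 3.23 FPKM, and the list median was -0.21. Of 18 genes of the ubiquitin and kinase steps, Tnfaip3 was called lower, at 55.2 and 23.5 FPKM, and the list median was 0.33. Tnfaip3 encodes A20, the NF-kB target that restrains the pathway.

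None of 9 NF-kB subunits and inhibitors passed 2-fold, and 8066 of 9792 genes at 5 FPKM or more did not either. The list median was 0.20, close to the 0.16 of all genes at that level. The inhibitor gene Nfkbia was the most abundant, at 1238 and 1364 FPKM. Nfkb2, a subunit gene of the noncanonical branch, was at 168.1 and 267.9 FPKM (log2 ratio 0.67). Of other genes of the noncanonical branch, Relb was at 126.8 and 231.9 FPKM (log2 ratio 0.87), Map3k14, which encodes NIK, at 26.6 and 40.9 FPKM (log2 ratio 0.62), and Chuk, which encodes IKK alpha, at 20.3 and 21.8 FPKM (log2 ratio 0.10). Nfkb1 and the inhibitor gene Nfkbie, of the canonical branch, had log2 ratios of 0.49 and 0.92, so the values do not set the branches apart. Relb, Map3k14, Chuk, Nfkb1, Nfkbie and Traf6, and the marker genes given by name, were chosen for mention after their values were seen.

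**Figure D5:**
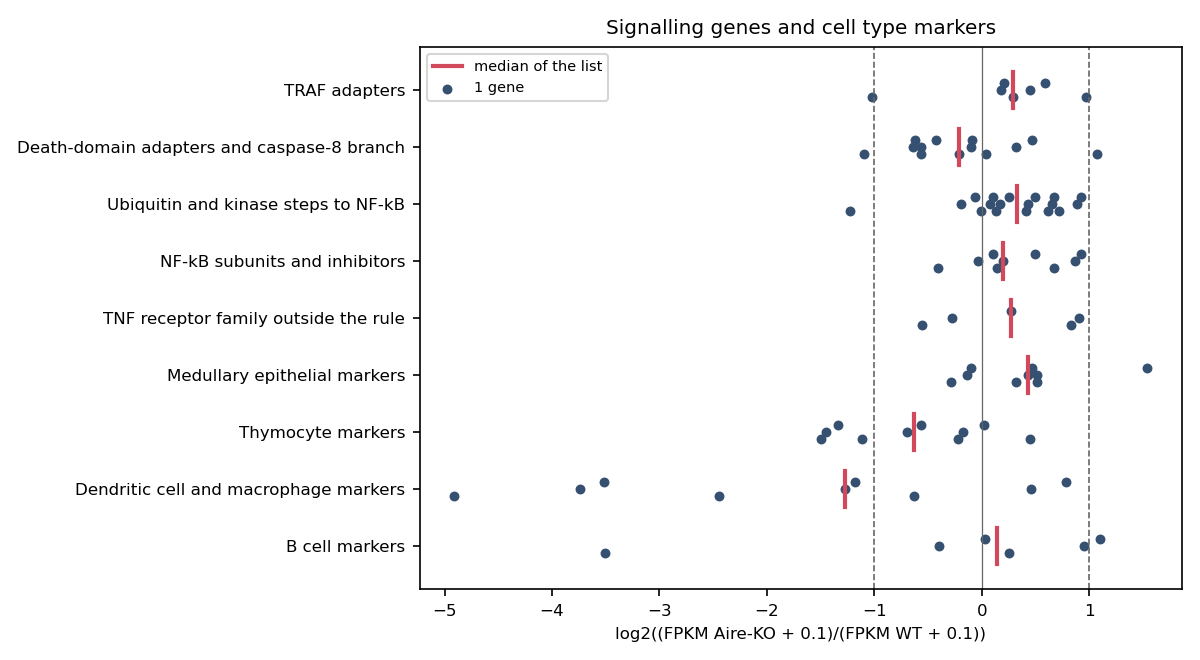
Log2 ratio (horizontal axis) of each measured gene (point) in 9 lists of signalling genes and cell type markers, with the list median as a red bar and dashed lines at 2-fold. Signalling lists lie mostly within 2-fold, as did 11518 of all 15906 genes. The dendritic cell and macrophage list has 6 of its 9 genes left of the lower line, beside 20.5% of all genes.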

How the data were processed

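Poly-A RNA of 2 libraries was measured, 1 per genotype. TopHat2, Cuffdiff and build mm10 are named in the submitters' processing notes. Versions, annotation release, strand setting and library scaling were not given in the sources used here. The authors deposited FPKM per gene and per isoform, and with each row a p-value and a q-value of their own. Rows without an estimate because of high coverage, 5 genes, were treated as missing. The members, lists and thresholds were chosen with earlier results of these data known. Every member at 0.5 FPKM or more is named, as are the genes of each signalling list past 2-fold, or otherwise the 2 most abundant. Fragments were estimated from the steps of low values in genes with 1 isoform and at least 2000 bp, with 170 bp taken off the transcript length. Of 192 and 464 such values up to 5 fragments, 77.1% and 78.7% lay within 0.1 of a whole multiple of a step fitted to these same values. A count of 0 in a transcript of 2000 bp allows up to 0.0348 and 0.0305 FPKM (3 counts). Intervals are exact conditional binomial 95% intervals. The fit of the step was tested on simulated data. Without a stated strand setting, antisense reads cannot be told apart. Coordinates and start-site sequences came from RefSeq (GRCm38.p6), exons from GENCODE M21. Python 3.11.15, numpy 2.4.6, pandas 2.3.3 and scipy 1.17.1 were used. Other pseudocounts, minimums, scalings and thresholds were tried.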

Additional observations from a re-analysis of the deposited data

How the results depend on the processing

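With 1 library per genotype, no library can be left out. No paired analysis was possible because each genotype has a single library. Shares of all genes stand beside the counts of members. The 10 lower members (20.5% of all genes) became 11 with a pseudocount of 0.01 FPKM, 11 with both libraries scaled to the same sum (21.5%), 12 of 44 with no minimum (21.6%; Cd40lg and Tnfsf8 added), 10 with gene values summed from isoforms (20.5%) and 14 with centring on genes at 5 FPKM or more (22.5%; Eda, Tnfsf10, Tnfsf13 and Tnfsf13b added). Eda alone makes both counts of 11, and its estimated fragments run the other way. Without Eda, also chosen after seeing the data, these counts were 10, 10 and, with centring, 13. Centring moved the median from -0.48 to -0.64 by construction, since it subtracts 0.16. With a pseudocount of 1 FPKM, 6 members were lower (15.2% of all genes) and the median was -0.37, because the added value shrinks ratios of low genes. Cd27, Tnfrsf13b, Tnfrsf25 and Tnfsf11 lost the call. With a minimum mean of 2 FPKM, 1 of 29 members was lower (14.3% of all genes) and the median was 0.01, since this setting leaves out the low members. At a 1.5-fold threshold 18 were lower and 8 higher (26.8% and 19.3% of all genes). At 4-fold 7 were lower and 0 higher (11.9% and 0.629%). The 3 overlapping rows of chromosome 11 were also left out, an alternative chosen after seeing the data. Then 10 of 38 were lower (20.5% of all genes), 1 was higher (7.09%) and the median was -0.49. Of the 44 single ratios, 0 left their counting interval with a pseudocount of 0.01 FPKM, 14 with 1 FPKM, 9 with the same sum and 22 with centring. No called value changed sign under these 4 settings, and none could have. A pseudocount cannot turn a sign, and both scalings moved log2 ratios by far less than a 2-fold call. Tnfsf12 and Tnfrsf1b, neither called, changed sign under both scalings, and Fasl and Tnfsf12Tnfsf13 under centring. Lower calls at low level rest on few fragments in the library labelled Aire-KO, an estimated 4 to 118. In the library labelled WT the same genes had an estimated 26 to 547.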

Other observations

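Genes of the TNF receptor family that the naming rule does not reach were measured too. Relt, a receptor of this family, was at 30.2 FPKM under the WT label and 53.5 FPKM under the Aire-KO label. Its relatives Rell1 and Rell2 were at 13.9 and 9.43 FPKM and at 1.54 and 1.88 FPKM. Eda2r, which binds an isoform of ectodysplasin, was at 4.72 and 8.89 FPKM, beside 2.87 and 2.65 FPKM for Edar. Ngfr, the low-affinity receptor of neurotrophins, was at 5.80 and 4.77 FPKM. None of these 5 genes passed 2-fold, beside 11518 of all 15906 genes that did not, and their median log2 ratio was 0.27. Tnfrsf12a had a second isoform, NM_001161746, listed at 0 in the library labelled WT and at 1.27 FPKM in the library labelled Aire-KO, 6.57% of the gene.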
